A study of Mus musculus and Homo sapiens with 8 samples.

Results

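The comparison described here is that of irradiated with unirradiated thymus in wild-type mice, across all genes measured. It rests on 3 Illumina bead arrays, which read RNA by hybridisation to probe-coated beads: 1 array labelled wild type without irradiation (WT NO IR) and 2 labelled wild type after irradiation (WT IR1 and WT IR2). The RNA was labelled as that of thymus cells from CD-1 mice at 2.5 weeks of age. The labels give the irradiation as 15 Gy and its duration of treatment as 10 h. A further 2 arrays were from TRAF6 null thymus given the same irradiation. They entered the fit with a mean of their own, helped to estimate the spread between arrays, and form no side of the comparison. The labels give neither the sex of the mice, nor whether an array holds RNA of 1 or several animals, nor whether the irradiated arrays are of different animals; the spread behind each p-value is that between these arrays and may be technical. The unirradiated group is a single array, and the fit assumes that it varies like the others. Of 30854 rows in the deposited table, each a gene name, 11563 had a detection p-value under 0.01 on at least 2 of the 5 mouse arrays and were tested.

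The thymus is the organ in which T cells mature. Most of its cells are thymocytes, which divide, assemble a T cell receptor by cutting and joining DNA segments, and are selected by a meshwork of cortical and medullary epithelial cells that display peptides on MHC molecules. Thymocytes are among the most radiation-sensitive cells of the body and die by apoptosis, and macrophages clear their remains, while stromal cells survive longer. In RNA of the whole organ, fewer cells of a type and less RNA per cell cannot be told apart. The arrays were also scaled to a common distribution, so a level is relative to all other RNA on its array.

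Signals here are mean bead intensities, given first for the unirradiated array and then for irradiated arrays 1 and 2. Log2 differences and folds come from the same signals after background correction and quantile normalization, and the error is the standard error (SE) of limma's fit. A gene was called where its Benjamini-Hochberg adjusted p over all 11563 rows was under 0.05. The 99th percentile of the array's negative controls lay at 122 to 127.9, and a signal at or under it is written as not above background, and its fold is then a lower bound ("at least").

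Some markers of sex moved with irradiation in these arrays. Xist, the RNA that silences an X chromosome in female cells, had signals of 2188 against 101.0 and 103.0, so it was bright on the unirradiated array and at background on both irradiated ones. On the TRAF6 null arrays it was 101.2 and 1115. Kdm5d, a Y-linked histone demethylase, ran the other way, with 96.5 against 212.2 and 185.2, and was 161.9 and 100.6 on the TRAF6 null arrays. Ddx3y, a Y-linked RNA helicase that did not pass the detection filter, had 170.2 against 1248 and 1109, and 1104 and 220.0 on the TRAF6 null arrays. Other Y-linked rows stayed at background and were not tested. These were a second Kdm5d row (100.1 against 105.0 and 103.7), Eif2s3y (106.0 against 104.7 and 102.3) and Uty (105.4 against 107.3 and 108.0). Neither Xist nor Kdm5d passed limma's test (adjusted p = 0.077 and 0.104), and the TRAF6 null arrays also differ from each other in both. Irradiation and the sex-linked signal therefore cannot be told apart between the wild-type arrays. Of 292 rows mapped to chromosome X, 12.7% were called higher and 27.7% lower (median log2 difference -0.28), against 20.3% and 16.8% of 9186 autosomal rows (median 0.09). Of the genes described below, Efnb1, Timp1, Nsdhl and Prdx4 lie on chromosome X.

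With irradiation, 4189 of 11563 rows were called (limma, adjusted p under 0.05), which is 36.2% of the rows tested. Of these 2158 were higher (18.7%) and 2031 lower (17.6%), and 1657 and 1444 of them differed at least 2-fold. The median log2 difference over all rows tested was 0.05. Across genes, which are not independent replicates, the irradiated arrays correlated at 0.988 with each other and at 0.877 and 0.865 with the unirradiated array. On every called row both irradiated arrays lay on the same side of the unirradiated array. The calls rest on both irradiated arrays: without array 1 or array 2 no row was called by limma, although 3832 and 3498 rows then had an unadjusted p under 0.05, with the spread coming from the TRAF6 null arrays alone. The split of the calls differed between settings: 51.5% of called rows were higher here, 55.0% with median scaling and 69.6% of 4876 on the authors' matrix values, which are not background-corrected and where the median of all rows was 0.263.

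The filter did not treat the directions alike. A gene seen on both irradiated arrays alone could be tested. On both of these and not on the unirradiated array 1324 rows were detected, 685 of them on no other array. Genes below that passed the filter in this way, through the arrays where they are high, include Gdf15, Areg, Jag1, Dll1, Adamts4, Dsp and Slc26a4. The signals of Cxcl2, Ankrd1 and Nppb were likewise above background on the irradiated wild-type arrays alone. A gene seen on the unirradiated array alone could not, which left out 503 rows. Counts of rises and falls in the lists below carry this imbalance. Another 255 rows were detected on the unirradiated array and on neither irradiated wild-type array but passed through the TRAF6 null arrays. The lists of genes below were taken from pathways, cell types and gene families, and each count is to be read against the 18.7% higher and 17.6% lower of all rows.

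**Figure D1:**
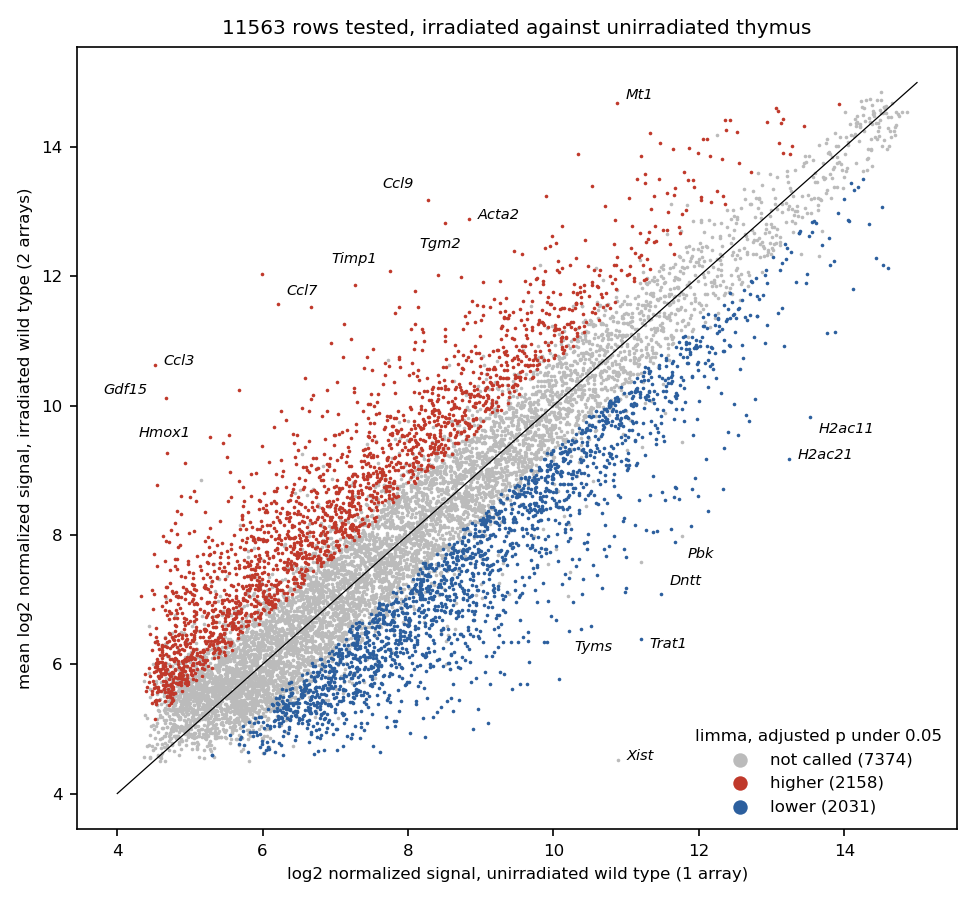
Each point is 1 of the 11563 rows tested, with its log2 normalized signal on the unirradiated wild-type array on the x axis and its mean over the 2 irradiated wild-type arrays on the y axis. Points above the line of equal level are brighter after irradiation: red rows (2158) were called higher, blue rows (2031) lower and grey rows were not called, among them Xist.

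Secreted attractants of leukocytes made up much of the top of the list of rises. Of the chemokines, 14 of 24 rows (58.3%) were called higher and 1 (4.2%) lower, with a median log2 difference of 1.91. Ccl3, which recruits monocytes and lymphocytes, had signals of 101.3 against 1365 and 2050.5 and was at least 41.6-fold higher (log2 difference 6.11 ± 0.37 SE, limma adjusted p = 0.00601). The monocyte attractants Ccl7 (157.7 against 2426 and 3533) and Ccl2 (108.0 against 590.2 and 946.4) were 41.3-fold higher (log2 difference 5.37 ± 0.41 SE, limma adjusted p = 0.00601) and at least 16.1-fold higher (log2 difference 4.58 ± 0.53 SE, limma adjusted p = 0.0082). Ccl9, another myeloid attractant, had 410.1 against 7311 and 8424 and was 29.9-fold higher (log2 difference 4.90 ± 0.51 SE, limma adjusted p = 0.00747). Ccl3 and Ccl2 were not above background without irradiation, and in all 4 genes irradiated array 2 was the brighter. Xcl1, a lymphocyte product that attracts cross-presenting dendritic cells, moved the other way, with 432.1 against 213.7 and 235.9, 2.77-fold lower (log2 difference -1.47 ± 0.32 SE, limma adjusted p = 0.0254). Among chemokine receptors the counts stayed near the share of all rows, since 2 of 12 rows were called higher and 2 lower (median log2 difference -0.35, -0.21 with genes at their bound), and that median was 0.14 on the authors' matrix and 0.70 over rows detected on all arrays. Cxcr4, which holds immature thymocytes in the cortex, had 1806 against 659.8 and 519.1 and was 3.38-fold lower (log2 difference -1.76 ± 0.22 SE, limma adjusted p = 0.00886).

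The promoters of 17 of the chemokine genes tested were in the RefSeq table (GRCm38.p6), each with 250 bases before and 50 after the start site. The kappaB consensus, the degenerate motif of NF-kB, was searched on both strands. It was in 23.5% of these 17 promoters, in 5.1% of the promoters of all genes tested and in 6.2% of those of genes called higher. The promoters with a match belonged to Cxcl1, Cxcl2 and Ccl9, all called higher, and to Cxcl10, which was not called. They are shown, chosen after their values were seen, so that the letters can be compared between genes that rose and one that did not pass the test. Capitals mark the matches, and overlapping matches are joined.
Cxcl1 (chr5:90890995-90891294, + strand): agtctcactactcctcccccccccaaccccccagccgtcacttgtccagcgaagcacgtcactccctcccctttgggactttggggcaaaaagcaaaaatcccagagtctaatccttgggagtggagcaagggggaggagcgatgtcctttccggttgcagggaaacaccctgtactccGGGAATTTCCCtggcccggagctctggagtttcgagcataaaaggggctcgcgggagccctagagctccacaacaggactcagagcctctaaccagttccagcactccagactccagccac
Cxcl2 (chr5:90903649-90903948, + strand): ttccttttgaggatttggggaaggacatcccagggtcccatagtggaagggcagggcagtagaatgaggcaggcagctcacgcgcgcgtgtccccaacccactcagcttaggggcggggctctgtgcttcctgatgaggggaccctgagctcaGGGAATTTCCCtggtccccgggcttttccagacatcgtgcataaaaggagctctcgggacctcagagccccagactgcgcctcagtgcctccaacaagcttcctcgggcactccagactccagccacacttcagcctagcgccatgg
Ccl9 (chr11:83578587-83578886, - strand): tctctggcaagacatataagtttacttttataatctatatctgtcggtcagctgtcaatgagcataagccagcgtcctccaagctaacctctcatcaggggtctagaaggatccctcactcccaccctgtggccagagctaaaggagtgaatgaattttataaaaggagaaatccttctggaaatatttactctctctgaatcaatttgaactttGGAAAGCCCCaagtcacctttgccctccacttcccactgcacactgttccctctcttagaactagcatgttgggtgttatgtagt
Cxcl10 (chr5:92348840-92349139, - strand): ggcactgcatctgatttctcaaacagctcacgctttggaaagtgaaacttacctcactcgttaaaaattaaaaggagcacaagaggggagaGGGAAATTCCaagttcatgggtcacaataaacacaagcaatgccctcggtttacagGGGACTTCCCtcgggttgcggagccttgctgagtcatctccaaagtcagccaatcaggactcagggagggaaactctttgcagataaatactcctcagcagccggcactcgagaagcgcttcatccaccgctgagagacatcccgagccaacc
Cxcl1 had signals of 294.8 against 1497 and 1541 and Cxcl2 108.7 against 208.5 and 159.7, the latter near background throughout. They were 6.93-fold higher (log2 difference 2.79 ± 0.34 SE, limma adjusted p = 0.00854) and at least 2.14-fold higher (log2 difference 1.64 ± 0.29 SE, limma adjusted p = 0.0158). Cxcl10, an attractant of T cells induced by interferon, had 275.3 against 530.2 and 1319.7, with the irradiated arrays far apart, and was not called (log2 difference 1.89 ± 0.75 SE, limma adjusted p = 0.106). A match is a description of these letters and no evidence of binding.

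Cytokines and their receptors rose more often than they fell. Of the interleukins and their receptors, 13 of 35 rows (37.1%) were called higher and 1 (2.9%) lower, with a median log2 difference of 0.77 (0.58 with genes at their bound). The inflammatory cytokines Il1b (152.3 against 463.7 and 1041) and Il1a (137.0 against 381.0 and 497.7) were 8.24-fold higher (log2 difference 3.04 ± 0.72 SE, limma adjusted p = 0.031) and 5.99-fold higher (log2 difference 2.58 ± 0.43 SE, limma adjusted p = 0.0137). For Il1b the irradiated arrays themselves differed more than 2-fold. The IL-17 receptor subunits went in opposite directions, Il17rc with 116.6 against 300.2 and 311.4 (at least 5.09-fold higher) and Il17rb with 514.4 against 170.2 and 156.0 (6.16-fold lower). Of the TNF family, 9 of 31 rows (29%) were called higher and 2 (6.5%) lower, with a median log2 difference of 0.64. Tnfrsf12a, the receptor of the cytokine TWEAK, had 135.8 against 1548 and 1126 and was 23.7-fold higher (log2 difference 4.57 ± 0.25 SE, limma adjusted p = 0.00601). Ltbr, the lymphotoxin receptor that medullary epithelium needs, had 130.8 against 326.6 and 301.0 (4.39-fold higher), and Tnfrsf11a, the receptor RANK, had 200.9 against 573.7 and 494.2 (3.49-fold higher). Cd27, a costimulatory receptor of lymphocytes, had 4993 against 2217 and 1776 (2.27-fold lower).

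Of the genes of nucleic acid sensing and the inflammasome, 9 of 27 rows (33.3%) were called higher and 1 (3.7%) lower, with a median log2 difference of 0.69. Irak2, a kinase of the IL-1 receptor pathway, and Nod1, a sensor of bacterial peptides, were 3.21-fold and 3.13-fold higher, and Pycard, the inflammasome adaptor, was 1.92-fold lower. Of the interferon-induced genes, 8 of 37 rows (21.6%, near the 18.7% of all rows) were called higher and 0 lower, with a median log2 difference of 0.91. The called rises included the antiviral genes Oas2 (177.6 against 436.0 and 681.1), Mx2 (219.1 against 552.1 and 933.2) and Oasl2, at 4.46-fold, 4.35-fold and 2.68-fold higher, and the GTPase Ifi47, at 6.85-fold. These were all brighter on irradiated array 2 than on array 1. Of the serpins, protease inhibitors of inflammation and clotting, 9 of 22 rows (40.9%) were called higher and 0 lower, with a median log2 difference of 0.97. Serpina3n, an acute-phase inhibitor, had 1129 against 7680.0 and 9161 and was 10.2-fold higher (log2 difference 3.35 ± 0.57 SE, limma adjusted p = 0.0143). Of the complement genes, 9 of 15 rows (60%) were called higher and 0 lower, with a median log2 difference of 1.14. C3, the central complement protein, had 4243 against 9420.2 and 10152 (3.11-fold higher), and C1qb, part of the recognition molecule, had 1463 against 3929.5 and 3094 (3.03-fold higher).

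**Figure D2:**
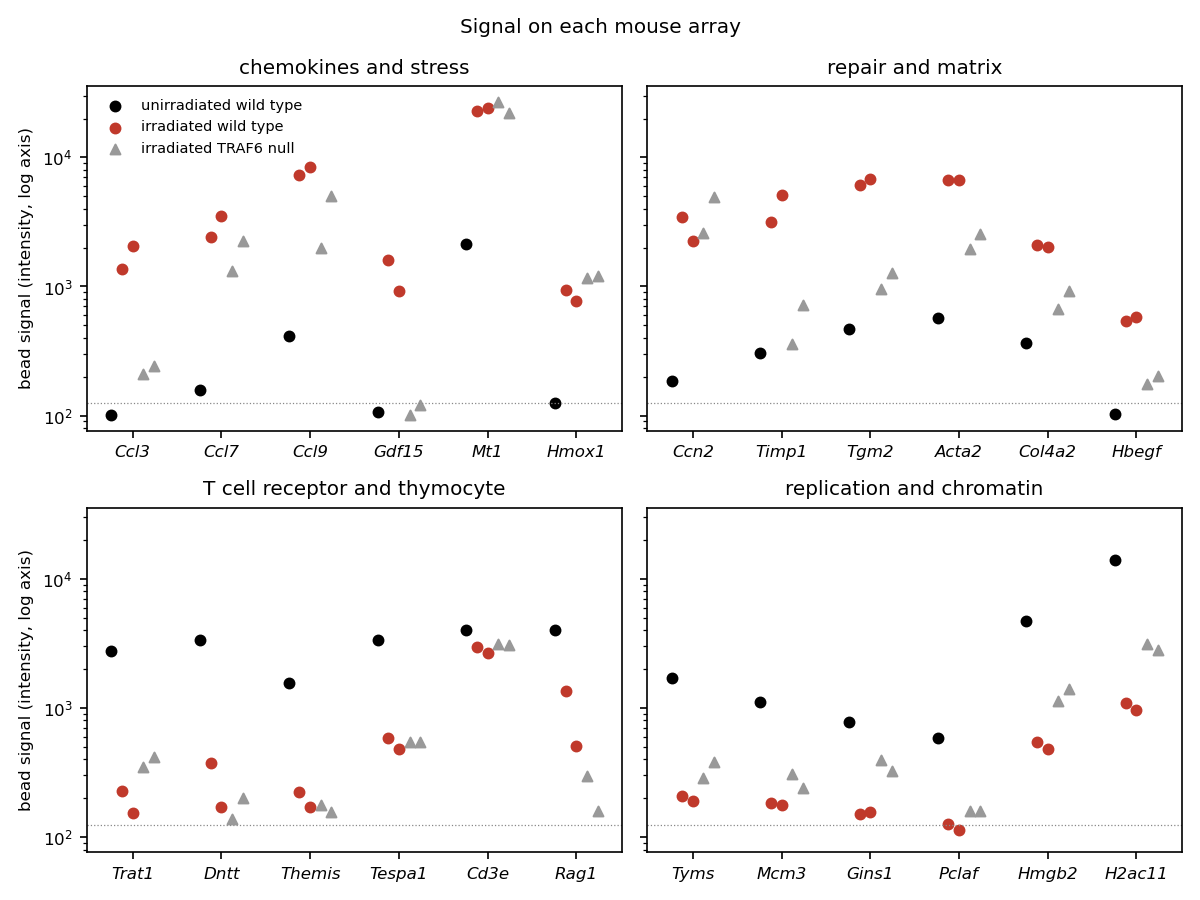
Bead signal (log axis) of 24 named genes on each of the 5 mouse arrays, with black for unirradiated wild type, red for irradiated wild type and grey triangles for irradiated TRAF6 null; the dotted line is the mean over arrays of the 99th percentile of negative controls. In the upper panels both red points lie above the black one, and in the lower panels both lie below it, though Cd3e and Rag1 were not called.

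Immediate early genes, which cells switch on within minutes of a stimulus and which encode AP-1 and related factors, were mostly higher after irradiation. Of these, 14 of 20 rows (70%) were called higher and 0 lower, with a median log2 difference of 1.88. Ccn2, a matrix-associated growth factor, had 184.7 against 3475 and 2266 and was 29.2-fold higher (log2 difference 4.87 ± 0.44 SE, limma adjusted p = 0.00686). Its relative Ccn1 had 113.8 against 673.5 and 391.3 and was at least 10.2-fold higher (log2 difference 3.72 ± 0.38 SE, limma adjusted p = 0.00747). Ier3, an early gene that restrains cell death, had 237.3 against 3858 and 3081 and was 24.2-fold higher (log2 difference 4.60 ± 0.21 SE, limma adjusted p = 0.00601). Atf3, a stress-induced transcription factor, had 113.9 against 505.2 and 384.7 and was at least 8.39-fold higher (log2 difference 3.44 ± 0.33 SE, limma adjusted p = 0.00695). Of the phosphatases and SOCS proteins that damp such signals, 9 of 17 rows (52.9%) were called higher and 3 (17.6%) lower, with a median log2 difference of 0.81. The cytokine signalling inhibitors Socs3 (325.4 against 1632 and 1957) and Cish (507.7 against 1997 and 1985) were 7.35-fold higher (log2 difference 2.88 ± 0.25 SE, limma adjusted p = 0.00654) and 4.89-fold higher (log2 difference 2.29 ± 0.22 SE, limma adjusted p = 0.00686), while Socs4 was 2.76-fold lower.

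Of the factors known from studies of thymus regeneration, 12 of 19 rows (63.2%) were called higher and 0 lower, with a median log2 difference of 1.32 (1.10 with genes at their bound). Hbegf, a ligand of the EGF receptor, had 102.1 against 544.9 and 583.7 and was at least 11.5-fold higher (log2 difference 4.24 ± 0.22 SE, limma adjusted p = 0.00601). Areg, another such ligand, had 118.0 against 244.7 and 301.3 (at least 4.24-fold higher), and Fst, which binds and blocks activins, had 105.5 against 223.2 and 227.4 (at least 3.15-fold higher). Each was not above background without irradiation. Gdf15, a secreted stress cytokine of the TGF-beta family, had 107.2 against 1610.3 and 926.6 and was at least 29.2-fold higher (log2 difference 5.45 ± 0.43 SE, limma adjusted p = 0.00601). Of the TGF-beta and BMP pathway, 15 of 32 rows (46.9%) were called higher and 0 lower, with a median log2 difference of 0.92. Tgfb1, the main ligand in immune cells, had 156.4 against 429.4 and 475.3 and was 4.55-fold higher (log2 difference 2.19 ± 0.26 SE, limma adjusted p = 0.00845). Of the Notch pathway, which commits progenitors to the T lineage, 5 of 10 rows (50%) were called higher and 0 lower, with a median log2 difference of 1.20. The ligands Jag1, Dll1 and Jag2 were at least 2.48-fold, at least 2.34-fold and at least 2.65-fold higher, all from below background, and the target gene Hes1 had 148.4 against 385.4 and 341.6 (3.83-fold higher). Of the WNT pathway, 7 of 17 rows (41.2%) were called higher and 0 lower, with a median log2 difference of 0.32. Wnt7b (136.0 against 383.5 and 402.6) and Wnt4 (149.0 against 361.7 and 356.0), both ligands, were 5.34-fold and 3.74-fold higher. Of the semaphorin and ephrin systems of cell guidance, 9 of 20 rows (45%) were called higher and 0 lower, with a median log2 difference of 0.65. Efnb1 and Ephb4, a ligand and a receptor of that system, were 5.83-fold and 3.16-fold higher.

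Lists of matrix genes and of the enzymes that cut matrix held more called rises than falls. Of the collagens and matrix proteins, 26 of 41 rows (63.4%) were called higher and 1 (2.4%) lower, with a median log2 difference of 1.61. Col4a2, a basement membrane chain, had 367.6 against 2088 and 2034 and was 7.48-fold higher (log2 difference 2.90 ± 0.23 SE, limma adjusted p = 0.00601). Hspg2, the core of perlecan, and Lama3 were 8.39-fold and 7.61-fold higher. The called fall was that of Lum, a proteoglycan of fibrous tissue, with 313.1 against 163.1 and 164.2, 3.35-fold lower (log2 difference -1.74 ± 0.42 SE, limma adjusted p = 0.0326). Of the matrix proteases and their inhibitors, 16 of 22 rows (72.7%) were called higher and 0 lower, with a median log2 difference of 1.68. Timp1, an inhibitor of metalloproteases, had 305.0 against 3162 and 5078 and was 20.1-fold higher (log2 difference 4.33 ± 0.54 SE, limma adjusted p = 0.00863). The urokinase receptor Plaur (131.7 against 593.8 and 666.7) was 10.7-fold higher, Adamts4, which cuts proteoglycans, at least 6.64-fold and Mmp13, a collagenase, 7.02-fold. Of the integrins, 8 of 17 rows (47.1%) were called higher and 1 (5.9%) lower, with a median log2 difference of 0.63. Itgb4 (439.2 against 3674 and 4098) and Itga3 (185.2 against 1167 and 1240.1), subunits of receptors for laminin, were 12.2-fold higher (log2 difference 3.61 ± 0.23 SE, limma adjusted p = 0.00601) and 10.8-fold higher (log2 difference 3.43 ± 0.29 SE, limma adjusted p = 0.00651).

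Marker lists of stromal and epithelial cells held more called rises than falls, and the share of such cells in each sample was not measured. Of the smooth muscle and pericyte markers, 5 of 8 rows (62.5%) were called higher and 0 lower, with a median log2 difference of 1.72. The summed normalized signal of these rows was 1405 against 10258 and 9766, and Acta2 alone made up most of it on both irradiated arrays. Acta2, smooth muscle actin, had 573.0 against 6727 and 6668 and was 16.6-fold higher (log2 difference 4.05 ± 0.21 SE, limma adjusted p = 0.00601). Of the endothelial markers, 15 of 23 rows (65.2%) were called higher and 1 (4.3%) lower, with a median log2 difference of 1.33 (1.10 with genes at their bound), and their sum was 7603 against 15881 and 15302. Plvap, of fenestrated vessels, and Selp, an adhesion molecule of activated vessels, were 8.15-fold and at least 6.98-fold higher, whereas Icam2 was 3.38-fold lower and the pan-endothelial Pecam1 (389.3 against 554.6 and 443.4) was not called. Of the fibroblast markers, 4 of 16 rows (25%) were called higher and 2 (12.5%) lower, with a median log2 difference of 0.51 (0.29 with genes at their bound), with a sum of 6081 against 9022 and 9093. The defining fibroblast receptor Pdgfra had 159.3 against 212.7 and 195.6 and was not called (log2 difference 0.42).

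Of the medullary epithelial markers, 12 of 18 rows (66.7%) were called higher and 0 lower, with a median log2 difference of 1.42, with a sum of 20988 against 61693 and 60979. Aire, which drives display of tissue antigens there, had 209.3 against 465.5 and 513.9 and was 2.93-fold higher (log2 difference 1.55 ± 0.26 SE, limma adjusted p = 0.0143). Cldn4, a tight junction protein of these cells, had 368.5 against 2507 and 2284 and was 9.04-fold higher (log2 difference 3.18 ± 0.56 SE, limma adjusted p = 0.0158), and the keratin Krt5 had 292.5 against 1017 and 816.6 (3.93-fold higher). Of the cortical epithelial markers, 6 of 11 rows (54.5%) were called higher and 1 (9.1%) lower, with a median log2 difference of 0.91, with a sum of 27286 against 66370 and 58196. The simple-epithelium keratins Krt8 (5948 against 18978 and 18813) and Krt18 (3735 against 14748 and 11498), which other epithelia share, were 4.17-fold and 5.03-fold higher. Together Krt8 and Krt18 carried most of the rise in the cortical sum on both irradiated arrays. Psmb11, the thymus proteasome subunit that only cortical epithelium is known to make, had 234.4 against 144.3 and 135.1 and was 3.21-fold lower (log2 difference -1.68 ± 0.19 SE, limma adjusted p = 0.00794). Foxn1, the master factor of thymic epithelium, was at or near background (100.4 against 125.2 and 117.5) and was not tested, and the epithelial marker Epcam was at background on all arrays (95.3 to 106.2). Of the stratified epithelium genes, 19 of 26 rows (73.1%) were called higher and 0 lower, with a median log2 difference of 1.38. Sfn, a 14-3-3 protein of keratinocytes, and Dsp, a desmosome protein, were 8.04-fold and 6.55-fold higher. Krt7, on the same list but no marker of stratified epithelium in particular, was 5.51-fold higher. Of the junction proteins, 20 of 30 rows (66.7%) were called higher and 0 lower, with a median log2 difference of 1.22 (1.10 with genes at their bound). Cdh3, an epithelial cadherin, was at least 4.93-fold higher.

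**Figure D3:**
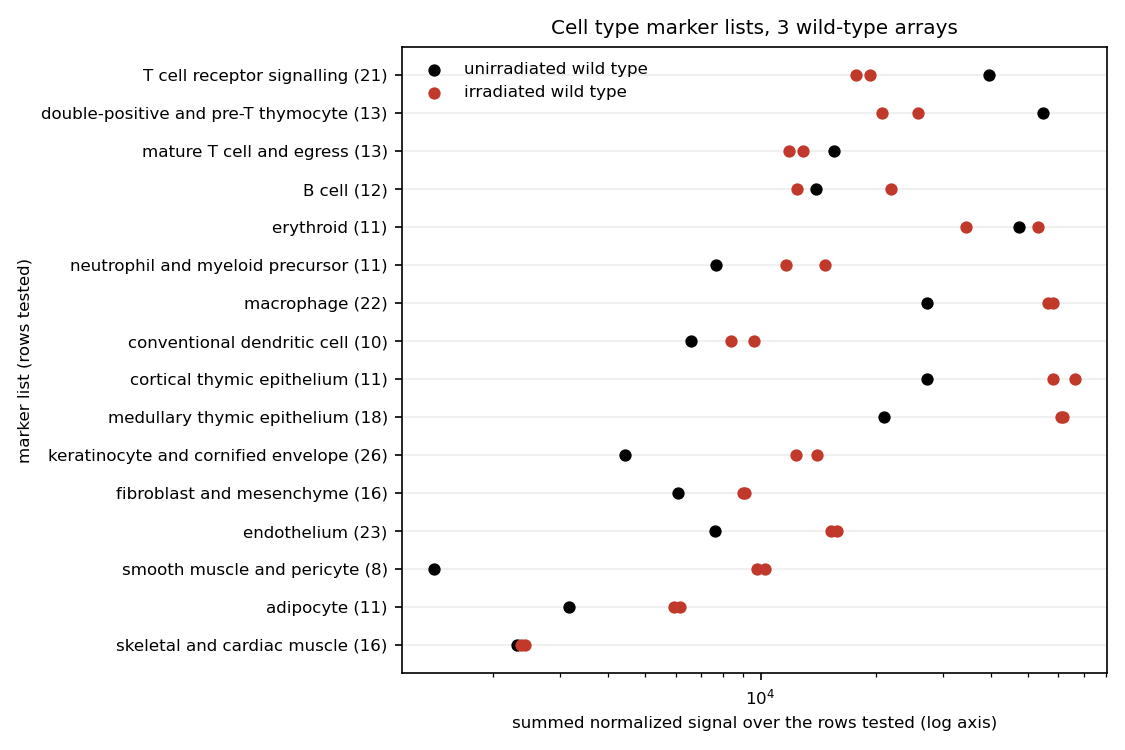
Summed normalized signal (log axis) over the tested rows of 16 marker lists, with 1 black point for the unirradiated and 2 red points for the irradiated wild-type arrays. Sums of thymocyte and T cell receptor genes are lower after irradiation, those of macrophage, epithelial, endothelial and smooth muscle genes higher, and the red points lie on both sides of the black one for B cell and erythroid genes. Most of the smooth muscle rise comes from Acta2, and most of the cortical epithelial rise from Krt8 and Krt18.

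Lists of macrophage genes and of the uptake and digestion of dead cells held many called rises and 1 called fall. Of the macrophage markers, 14 of 22 rows (63.6%) were called higher and 0 lower, with a median log2 difference of 1.29, and their summed normalized signal was 27286 against 58123 and 56452. Hmox1, the haem-degrading enzyme, had 124.2 against 931.8 and 778.3 and was 18.9-fold higher (log2 difference 4.24 ± 0.19 SE, limma adjusted p = 0.00601). The scavenger receptor Marco (109.5 against 429.7 and 352.7) was at least 7.09-fold higher and the endotoxin co-receptor Cd14 (254.1 against 1419 and 1839) 9.09-fold higher. Cd68, a lysosomal protein of macrophages, had 466.1 against 2363 and 2218 and was 6.39-fold higher (log2 difference 2.68 ± 0.31 SE, limma adjusted p = 0.0082), and Adgre1, which encodes F4/80, had 318.6 against 518.5 and 493.7, a smaller rise, 1.68-fold higher (log2 difference 0.75 ± 0.21 SE, limma adjusted p = 0.0476). Among genes of apoptotic cell uptake, 16 of 24 rows (66.7%) were called higher and 1 (4.2%) lower, with a median log2 difference of 1.34. Tgm2, a transglutaminase that rises in phagocytes, had 465.4 against 6128 and 6832 and was 19.99-fold higher (log2 difference 4.32 ± 0.26 SE, limma adjusted p = 0.00601). The engulfment receptor Mertk (128.5 against 362.4 and 339.1), the sterol sensor Nr1h3 (137.7 against 593.2 and 515.8) and the lipid carrier Apoe (951.6 against 3305 and 3161) were 5.44-fold, 8.06-fold and 4.31-fold higher. Stab1, a scavenger receptor, went against them with 1109 against 363.6 and 361.8, 3.82-fold lower (log2 difference -1.93 ± 0.19 SE, limma adjusted p = 0.00686). Its detection p-value on the unirradiated array was 0.1234, so it did not count as detected there.

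Of the lysosomal hydrolases and proton pump subunits, 24 of 57 rows (42.1%) were called higher and 0 lower, with a median log2 difference of 0.57. Lgmn, a lysosomal protease, had 899.6 against 4943 and 4697 (6.88-fold higher), Grn, progranulin, had 746.2 against 3709 and 3559.9 (6.34-fold higher) and the pump subunit Atp6v0a1 had 163.0 against 562.0 and 534.8 (5.36-fold higher). Of the sphingolipid enzymes, 10 of 20 rows (50%) were called higher and 0 lower, with a median log2 difference of 0.67. Hexa, which degrades gangliosides, had 470.6 against 1829 and 1703 (4.62-fold higher). Of the genes of MHC class II presentation, 12 of 19 rows (63.2%) were called higher and 0 lower, with a median log2 difference of 1.20. H2-Eb1 (1188 against 5765 and 5769), H2-Ab1 (3313 against 10409.8 and 9590.0), the invariant chain Cd74 (2908 against 10428 and 10165) and H2-DMa, which loads peptides, were 6.26-fold, 4.17-fold, 4.99-fold and 4.09-fold higher, and their irradiated arrays were close together. Class I presentation did not move as a block: 3 of 21 rows were called higher and 4 lower (median log2 difference 0.25). Tap1, the peptide transporter, had 440.0 against 1019 and 1148 (2.86-fold higher), the immunoproteasome subunit Psmb8 had 4112 against 1388 and 1309.6 (2.86-fold lower) and H2-Q2 had 604.5 against 185.9 and 125.4 (8.90-fold lower). The class I family members are close in sequence, and the files do not say how far their probes tell them apart. Of the dendritic cell markers, 5 of 10 rows (50%) were called higher and 1 (10%) lower, with a median log2 difference of 0.93. Fscn1, of migrating dendritic cells, was 6.57-fold higher and Ly6d, which lymphoid progenitors also carry, 4.19-fold lower.

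Stress genes rose in part, and the chaperones among them held more called falls than called rises. Mt1 and Mt2, the metallothioneins, which bind zinc and copper and are induced by metals, glucocorticoids and inflammation, were both called higher. Mt1 had 2145 against 22825 and 24054 and was 14-fold higher (log2 difference 3.81 ± 0.21 SE, limma adjusted p = 0.00601), and Mt2 had 150 against 334.8 and 378.6 and was 3.64-fold higher (log2 difference 1.86 ± 0.44 SE, limma adjusted p = 0.0311).
Of the genes that respond to glucocorticoids or FOXO factors, 11 of 28 rows (39.3%) were called higher and 1 (3.6%) lower, with a median log2 difference of 0.45. Sgk1, a kinase induced by steroids, had 1618 against 5703 and 5434 (4.37-fold higher), Errfi1, an inhibitor of the EGF receptor, had 586.4 against 3921 and 2238 (6.64-fold higher) and Nr3c1, the glucocorticoid receptor, had 166.4 against 132.7 and 117.3 (2.34-fold lower). Of the unfolded protein response, 10 of 35 rows (28.6%) were called higher and 1 (2.9%) lower, with a median log2 difference of 0.52. Cebpb, a factor of inflammation and stress, had 294.5 against 1737 and 1663 and was 7.92-fold higher (log2 difference 2.99 ± 0.24 SE, limma adjusted p = 0.00616), and Ppp1r15a, which restarts translation after stress, was 3.20-fold higher. Of the chaperones, 6 of 41 rows (14.6%) were called higher and 13 (31.7%) lower, with a median log2 difference of -0.11. The called rises included the small heat shock proteins Cryab (155.4 against 523.5 and 542.2) and Hspb8 (1027 against 4331 and 3184) and the co-chaperone Bag3 (438.6 against 1278 and 1243), at 5.78-fold, 4.60-fold and 3.40-fold higher. Of the antioxidant genes, 7 of 37 rows (18.9%, near the 18.7% of all rows) were called higher and 3 (8.1%) lower, with a median log2 difference of 0.25. Gpx3, a secreted peroxidase, had 354.7 against 2042 and 2594 (8.87-fold higher), Srxn1, which repairs peroxiredoxins, was 4.33-fold higher and the peroxiredoxin Prdx4 was 2.83-fold lower. Prdx4 had a detection p-value under 0.01 on no wild-type array and passed the filter through the TRAF6 null arrays. Of the polyamine and arginine enzymes, 5 of 11 rows (45.5%) were called higher and 0 lower, with a median log2 difference of 0.67. Odc1, which makes putrescine, had 4457 against 8488 and 10728 (2.97-fold higher), and Smox, a spermine oxidase, had 181.7 against 598.3 and 681.5 (5.23-fold higher).

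Lists of thymocyte and T cell receptor genes held more called falls than called rises. Of the markers of immature thymocytes, 1 of 13 rows (7.7%) were called higher and 6 (46.2%) lower, with a median log2 difference of -1.33, with a summed normalized signal of 54727 against 25807 and 20799. Dntt, which adds bases at receptor joints, had 3352 against 373.2 and 171.4 and was 20.9-fold lower (log2 difference -4.38 ± 0.79 SE, limma adjusted p = 0.0163). Themis, needed for positive selection, had 1563 against 224.2 and 172.0, 14.3-fold lower (log2 difference -3.84 ± 0.36 SE, limma adjusted p = 0.00686). Ptcra, the pre-T cell receptor chain, had 240.7 against 137.4 and 142.1 and was 3.31-fold lower (log2 difference -1.73 ± 0.22 SE, limma adjusted p = 0.00869). Rag1, the recombinase that cuts receptor genes, had 4024 against 1344 and 507.3 and was not called (log2 difference -2.33 ± 0.92 SE, limma adjusted p = 0.108). Cd4 was dim (151.7 against 161.6 and 149.6) and was not called, Cd8a was at background on all arrays (94.5 to 102.7), and the Cd8a row was not tested. Cd8b1 was listed under 2 names that disagreed: 1 row fell short of a call at 15146 against 6052 and 3715, and the other was called higher at 1315 against 1832 and 1870.

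Of the genes of T cell receptor signalling, 0 of 21 rows were called higher and 10 (47.6%) lower, with a median log2 difference of -1.18, with a summed normalized signal of 39611 against 19358 and 17721. Trat1, an adaptor of the receptor complex, had 2749 against 225.5 and 153.6, the largest fall of any called row, and was 28.1-fold lower (log2 difference -4.81 ± 0.40 SE, limma adjusted p = 0.00642). Tespa1, which links the receptor to calcium release, had 3384 against 588.6 and 480.1 (7.10-fold lower), Cd247, the zeta chain, had 1098 against 330.7 and 209.7 (6.08-fold lower) and the costimulator Cd28 had 1258 against 365.0 and 259.8 (5.48-fold lower). Cd3e, the epsilon chain, had 3996 against 2944 and 2653 and was not called (log2 difference -0.22). The table also holds 22 rows named as variable or joining segments of the receptor, a set noticed after the values had been seen. Of these rows 13 were tested and 9 were not, and Trbv13-1 was tested under both TCRB-V8.3 and TRBV13-1. All 13 tested rows were called lower, with log2 differences from -3.43 to -1.19. TRBV6 had 3242 against 474.9 and 314.9 and was 10.2-fold lower, and TCRB-V8.2, the smallest fall, had 16503 against 6933 and 4546 and was 2.29-fold lower. Of 26 tested rows named as immunoglobulin segments, 0 were called by limma and 2 had an unadjusted p under 0.05 (log2 differences from -1.07 to 1.38).

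Of the transcription factors of the T lineage, 3 of 18 rows (16.7%) were called higher and 6 (33.3%) lower, with a median log2 difference of -0.60. Tcf7, which starts the T cell programme, had 1688 against 839.7 and 675.8 (2.31-fold lower), while Spi1 and Lmo2, factors of progenitors and other blood lineages, were at least 1.65-fold and 2.20-fold higher. Id2, an inhibitor of helix-loop-helix factors, was in 2 rows, with 479 against 1503 and 1162 in the called row and 419.5 against 632.5 and 586.3 in the other, which was not called. Of the genes of mature T cells, 3 of 13 rows (23.1%) were called higher and 2 (15.4%) lower, with a median log2 difference of -0.41. Klf2, which drives egress, had 587.1 against 1156 and 1116 (2.17-fold higher). Of the GIMAP GTPases of lymphocyte survival, 0 of 5 rows were called higher and 3 (60%) lower, with a median log2 difference of -0.88. Gimap9 had 1802 against 532.6 and 428.1 (4.40-fold lower). Of the SLAM and CD2 family, 0 of 10 rows were called higher and 3 (30%) lower, with a median log2 difference of -0.67. Cd2, an adhesion molecule of T cells, had 2163 against 930.5 and 916.0 (2.35-fold lower).

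Replication genes fell nearly as a set. Of the replicative helicase, GINS and polymerase genes, 0 of 30 rows were called higher and 26 (86.7%) lower, with a median log2 difference of -1.60. Gins2 (825.3 against 148.2 and 137.0) and Gins1 (773.5 against 149.8 and 155.2), parts of the active helicase, were 13.97-fold lower (log2 difference -3.80 ± 0.20 SE, limma adjusted p = 0.00601) and 11.2-fold lower (log2 difference -3.48 ± 0.28 SE, limma adjusted p = 0.00624). All 6 subunits of the MCM ring, which opens DNA at origins, were called lower: Mcm3 by 11.6-fold (1106 against 183.8 and 178.0), Mcm6 by 6.68-fold (2282 against 426.5 and 406.8), Mcm5 by 6.35-fold (7721 against 1144 and 1278), Mcm7 by 4.84-fold (1408 against 411.2 and 325.6), Mcm2 by 3.83-fold (1742 against 524.2 and 504.8) and Mcm4 by 2.91-fold (2028 against 740.7 and 724.1). A second Gins2 row on the list had 962.1 against 164.1 and 160.2 and was 12.4-fold lower. Polymerase subunit Pold4 was not called (log2 difference 0.50), the highest of the list. The MCM genes other than Mcm3 were named after their values were seen.

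Promoters of 21 of these replication genes were in the RefSeq table. E2F-type motifs, searched as TTTGGCGC, TTTCCCGC and TTTCGCGC on both strands, were in 42.9% of them, in 3.6% of the promoters of all genes tested, in 7.1% of those of genes called lower and in 2.0% of those of genes called higher. The CCAAT box, searched on both strands, was in 66.7% of them and in 38.3%, 44.0% and 34.7% of the same groups. Promoters of 3 MCM genes are shown because they carry both kinds of match and their genes fell together. Capitals mark either motif, and matches that overlap are joined, as in Mcm6.
Mcm3 (chr1:20820263-20820562, - strand): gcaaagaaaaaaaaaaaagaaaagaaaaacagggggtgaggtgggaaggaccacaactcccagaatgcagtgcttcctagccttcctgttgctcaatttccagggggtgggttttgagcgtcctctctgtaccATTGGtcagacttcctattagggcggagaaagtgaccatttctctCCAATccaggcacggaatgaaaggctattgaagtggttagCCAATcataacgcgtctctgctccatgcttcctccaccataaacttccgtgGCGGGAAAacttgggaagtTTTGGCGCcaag
Mcm6 (chr1:128359656-128359955, - strand): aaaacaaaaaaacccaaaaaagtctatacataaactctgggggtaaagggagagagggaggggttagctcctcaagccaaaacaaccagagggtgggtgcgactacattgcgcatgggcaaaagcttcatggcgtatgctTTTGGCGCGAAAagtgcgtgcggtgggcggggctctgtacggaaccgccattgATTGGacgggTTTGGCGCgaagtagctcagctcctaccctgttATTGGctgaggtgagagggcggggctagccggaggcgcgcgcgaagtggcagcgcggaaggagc
Mcm7 (chr5:138171834-138172133, - strand): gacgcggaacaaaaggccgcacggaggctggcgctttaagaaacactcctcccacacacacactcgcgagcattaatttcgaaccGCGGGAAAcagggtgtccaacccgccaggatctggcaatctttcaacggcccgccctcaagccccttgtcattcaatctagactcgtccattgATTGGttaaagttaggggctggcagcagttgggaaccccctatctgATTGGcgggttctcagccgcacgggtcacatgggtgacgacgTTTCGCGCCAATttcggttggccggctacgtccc
Nothing about the factors that bind such letters was measured here.

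Of the enzymes of nucleotide synthesis, 1 of 32 rows (3.1%) were called higher and 20 (62.5%) lower, with a median log2 difference of -0.99. Tyms, thymidylate synthase, had 1708 against 207.8 and 189.6 and was 15.2-fold lower (log2 difference -3.93 ± 0.24 SE, limma adjusted p = 0.00601). Tyms was named among the largest falls of all called rows and is not among the 32 rows counted. Rrm1, of ribonucleotide reductase, had 1593 against 401.9 and 307.6 (5.82-fold lower), and Tk1, thymidine kinase, had 586.7 against 196.0 and 179.7 (5.47-fold lower). Against the rest, Ctps, which makes CTP, had 1166 against 3270.2 and 2536 (3.08-fold higher). Of the DNA repair genes, 1 of 47 rows (2.1%) were called higher and 26 (55.3%) lower, with a median log2 difference of -0.84. Apex1, of base excision repair, had 735.5 against 188.7 and 187.6, 6.95-fold lower (log2 difference -2.80 ± 0.19 SE, limma adjusted p = 0.00601), the helicase Blm had 705.3 against 200.9 and 190.0 (6.18-fold lower), and Xrcc6, which encodes Ku70 of end joining, had 6404 against 1456 and 915.2 (5.49-fold lower). Ercc5, a nuclease of nucleotide excision repair, was 2.77-fold higher. Of the kinesins, 0 of 15 rows were called higher and 6 (40%) lower, with a median log2 difference of -0.17. The mitotic motor Kif11 had 887.4 against 161.2 and 132.7 and was 14.3-fold lower (log2 difference -3.84 ± 0.27 SE, limma adjusted p = 0.00601), while the list's median was 0.18 on the authors' matrix.

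Of the histone genes, 2 of 45 rows (4.4%) were called higher and 12 (26.7%) lower, with a median log2 difference of -0.62. H2ac21 had 11216 against 715.3 and 689.2 and was 16.8-fold lower (log2 difference -4.07 ± 0.22 SE, limma adjusted p = 0.00601), and H2ac11 had 13913 against 1095 and 961.5 and was 12.98-fold lower (log2 difference -3.70 ± 0.21 SE, limma adjusted p = 0.00601). H2ac21 was named among the largest falls of all called rows and is not among the 45 rows counted. H2ac18 went the other way, with 466.9 against 2084 and 2066 (5.64-fold higher). Histone genes are near-identical copies, so the rows may share signal. Of the chromatin genes, 6 of 40 rows (15%) were called higher and 13 (32.5%) lower, with a median log2 difference of -0.47. Cbx3 (1872 against 277.4 and 230.6), a heterochromatin protein, and Hmgb2 (4728 against 545.5 and 481.0), a DNA-bending protein of dividing cells, were 11.2-fold lower (log2 difference -3.49 ± 0.23 SE, limma adjusted p = 0.00601) and 10.4-fold lower (log2 difference -3.38 ± 0.20 SE, limma adjusted p = 0.00601). The chromatin assembly factors Asf1b and Chaf1b were 6.84-fold and 4.997-fold lower, and Lmna, the lamin of differentiated cells, was 3.46-fold higher. Of the zinc finger genes, 10 of 148 rows (6.8%) were called higher and 43 (29.1%) lower, with a median log2 difference of -0.38, a median that was 0.06 on the authors' matrix. Zfp36, which destabilises cytokine RNAs, was 3.46-fold higher, and Zfp101 5.76-fold lower.

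Lists of RNA processing and mitochondrial genes held more called falls than called rises. Of the splicing factors, 0 of 83 rows were called higher and 41 (49.4%) lower, with a median log2 difference of -0.78, and the called falls included Srsf7 (2212 against 538.8 and 481.0), Hnrnpf (1241 against 376.6 and 310.9) and Magohb (483.4 against 185.6 and 186.0), at 4.98-fold, 4.59-fold and 4.42-fold lower. A second Srsf7 row had 5777 against 1367 and 1205 and was 4.29-fold lower. Among ribosome assembly genes, 1 of 47 rows (2.1%) were called higher and 18 (38.3%) lower, with a median log2 difference of -0.44. Nop56, a nucleolar protein, had 2089 against 595.0 and 517.2 (4.24-fold lower). Of the tRNA synthetases and partners, 4 of 32 rows (12.5%) were called higher and 13 (40.6%) lower, with a median log2 difference of -0.55. Of the translation factors, 3 of 56 rows were called higher and 14 lower (median log2 difference -0.37). Eif6, an anti-association factor of the ribosome, was 1.82-fold higher. Of the structural proteins of the cytosolic ribosome, 0 of 58 rows were called higher and 10 (17.2%, near the 17.6% of all rows) lower. Their median log2 difference was -0.13, and their summed normalized signal was 760473 against 706521 and 706762. Rps27a had 2359 against 704.0 and 700.9 (3.54-fold lower).

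Of the respiratory chain and ATP synthase, 0 of 72 rows were called higher and 29 (40.3%) lower, with a median log2 difference of -0.52, with a summed normalized signal of 323176 against 242865 and 246032. Ndufb5, of complex I, had 1228 against 418.0 and 422.8 (3.46-fold lower), and Atp5pb, of the ATP synthase, had 2583 against 895.1 and 762.9 (3.18-fold lower). Of the mitochondrial ribosomal proteins, 3 of 67 rows (4.5%) were called higher and 31 (46.3%) lower, with a median log2 difference of -0.63. Mrpl18 had 1116 against 349.2 and 321.3 (4.29-fold lower), and Mrps34 was 2.74-fold higher. Of the citric acid cycle, 0 of 21 rows were called higher and 7 (33.3%) lower, with a median log2 difference of -0.55. Pdhb, of pyruvate dehydrogenase, had 789.7 against 341.1 and 314.9 (3.07-fold lower), and Fh1, fumarase, had 1647 against 671.6 and 656.7 (2.62-fold lower). Of the genes of mitochondrial import and shape, 1 of 41 rows (2.4%) were called higher and 9 (22%) lower, with a median log2 difference of -0.29, a median that was 0.01 on the authors' matrix. Tfam, which packages mitochondrial DNA, had 1241 against 550.0 and 504.9 (2.58-fold lower), and Mfn2, a fusion protein, had 484.2 against 1005 and 1015 (2.37-fold higher). Of the glycolysis genes, 3 of 16 rows (18.8%) were called higher and 4 (25%) lower, with a median log2 difference of -0.21, a median that was 0.06 on the authors' matrix. The glucose transporter Slc2a1 had 580.8 against 1722 and 1713 (3.52-fold higher) and the kinase Pdk1, which closes the route to the mitochondrion, had 265.7 against 166.0 and 152.0 (2.89-fold lower).

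Of the cholesterol pathway, 1 of 16 rows (6.2%) were called higher and 9 (56.2%) lower, with a median log2 difference of -0.88. Fdps, a synthase of isoprenoids, had 1171 against 359.0 and 297.3 and was 4.67-fold lower (log2 difference -2.22 ± 0.23 SE, limma adjusted p = 0.00747). The sterol enzymes Msmo1 (978.6 against 317.2 and 299.2) and Nsdhl (252.6 against 138.7 and 129.0) were 4.21-fold and 3.93-fold lower, and Scap, the escort of the sterol-sensing factors, was 2.21-fold higher. A CCAAT box was in 9 of the 12 promoters of these genes held by RefSeq, against 38.3% over all genes tested. Of the serine and folate enzymes, 0 of 11 rows were called higher and 5 (45.5%) lower, with a median log2 difference of -0.60. Shmt1, which passes one-carbon units to folate, had 524.0 against 159.6 and 156.9, 6.65-fold lower (log2 difference -2.73 ± 0.20 SE, limma adjusted p = 0.00601), and Phgdh, the entry to serine synthesis, had 901.5 against 262.8 and 228.3 (5.54-fold lower). Of the fatty acid genes, 6 of 24 rows (25%) were called higher and 1 (4.2%) lower, with a median log2 difference of 0.01, a median whose sign changed over settings. Acot1, a thioesterase, had 213.9 against 1529.9 and 1333 (10.2-fold higher), and Acaa2, a thiolase of beta-oxidation, had 1358 against 499.1 and 499.3 (3.08-fold lower).

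Of the autophagy genes, 4 of 38 rows (10.5%) were called higher and 5 (13.2%) lower, with a median log2 difference of -0.04, with a sign of the median that changed on the authors' matrix and under median scaling. Sqstm1, the cargo receptor p62, was 2.80-fold higher. Of the proteasome subunits, 1 of 25 rows (4%) were called higher and 3 (12%) lower, with a median log2 difference of -0.20. Among protein export genes, 7 of 48 rows (14.6%) were called higher and 9 (18.8%) lower, with a median log2 difference of -0.19. Of the Rab GTPases, 14 of 49 rows (28.6%) were called higher and 4 (8.2%) lower, with a median log2 difference of 0.25. Rab7b and Rab32, of the endolysosomal route, were 3.60-fold and 3.06-fold higher. Of the solute carriers, 43 of 176 rows (24.4%) were called higher and 14 (8%) lower, with a median log2 difference of 0.26. Slc11a1, a metal transporter of macrophages, had 236.7 against 1341 and 1336 (8.05-fold higher), and Slc4a1, the anion exchanger of red cells, had 1124 against 279.5 and 404.2 (4.34-fold lower).

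Markers of cells that a thymus sample may carry along were uneven. Of the erythroid markers, 0 of 11 rows were called higher and 6 (54.5%) lower, with a median log2 difference of -1.09 (-0.95 with genes at their bound), and the summed normalized signal was 47441 against 34351 and 53155. The globin gene Hba-a1, which dominates that sum, had 23908 against 13999.8 and 24065 and was not called, with the irradiated arrays apart. Of the B cell markers, 1 of 12 rows (8.3%) were called higher and 2 (16.7%) lower, with a median log2 difference of -0.27, a median that changed sign on the authors' matrix, over rows detected on all arrays and with no filter. Cd79b, a chain of the B cell receptor, had 585.7 against 280.2 and 238.9 (3.14-fold lower), and the sum was 13927 against 21880 and 12483. Of the neutrophil markers, 2 of 11 rows (18.2%) were called higher and 1 (9.1%) lower, with a median log2 difference of 0.36, with a sum of 7655 against 11671 and 14759. Mmp9, gelatinase B, had 544.1 against 1617 and 3362 (5.41-fold higher), and S100a8, which encodes an abundant neutrophil protein, had 4863 against 5229 and 4724 and was not called. Of the adipocyte markers, 6 of 11 rows (54.5%) were called higher and 0 lower, with a median log2 difference of 0.92, with a sum of 3164 against 5924 and 6170. The defining Adipoq had 465.1 against 504.1 and 674.0 and was not called. Of the muscle markers, 3 of 16 rows (18.8%) were called higher and 1 (6.2%) lower, with a median log2 difference of 0.20, with a sum of 2306 against 2421 and 2362. Acta1, skeletal actin, had 149.3 against 583.2 and 351.8 (5.03-fold higher), and Mylpf, a myosin light chain, had 769.7 against 370.7 and 258.9 (3.26-fold lower). Of 4 parathyroid and thyroid rows tested none was called by limma and 0 had an unadjusted p under 0.05, whether Pth (146.9 against 189.9 and 152.5), Calca (273.7 against 362.1 and 317.0) or Slc26a4 (122.2 against 136.6 and 144.2) is taken. What part any of these cells has in the results above was not tested.

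**Figure D4:**
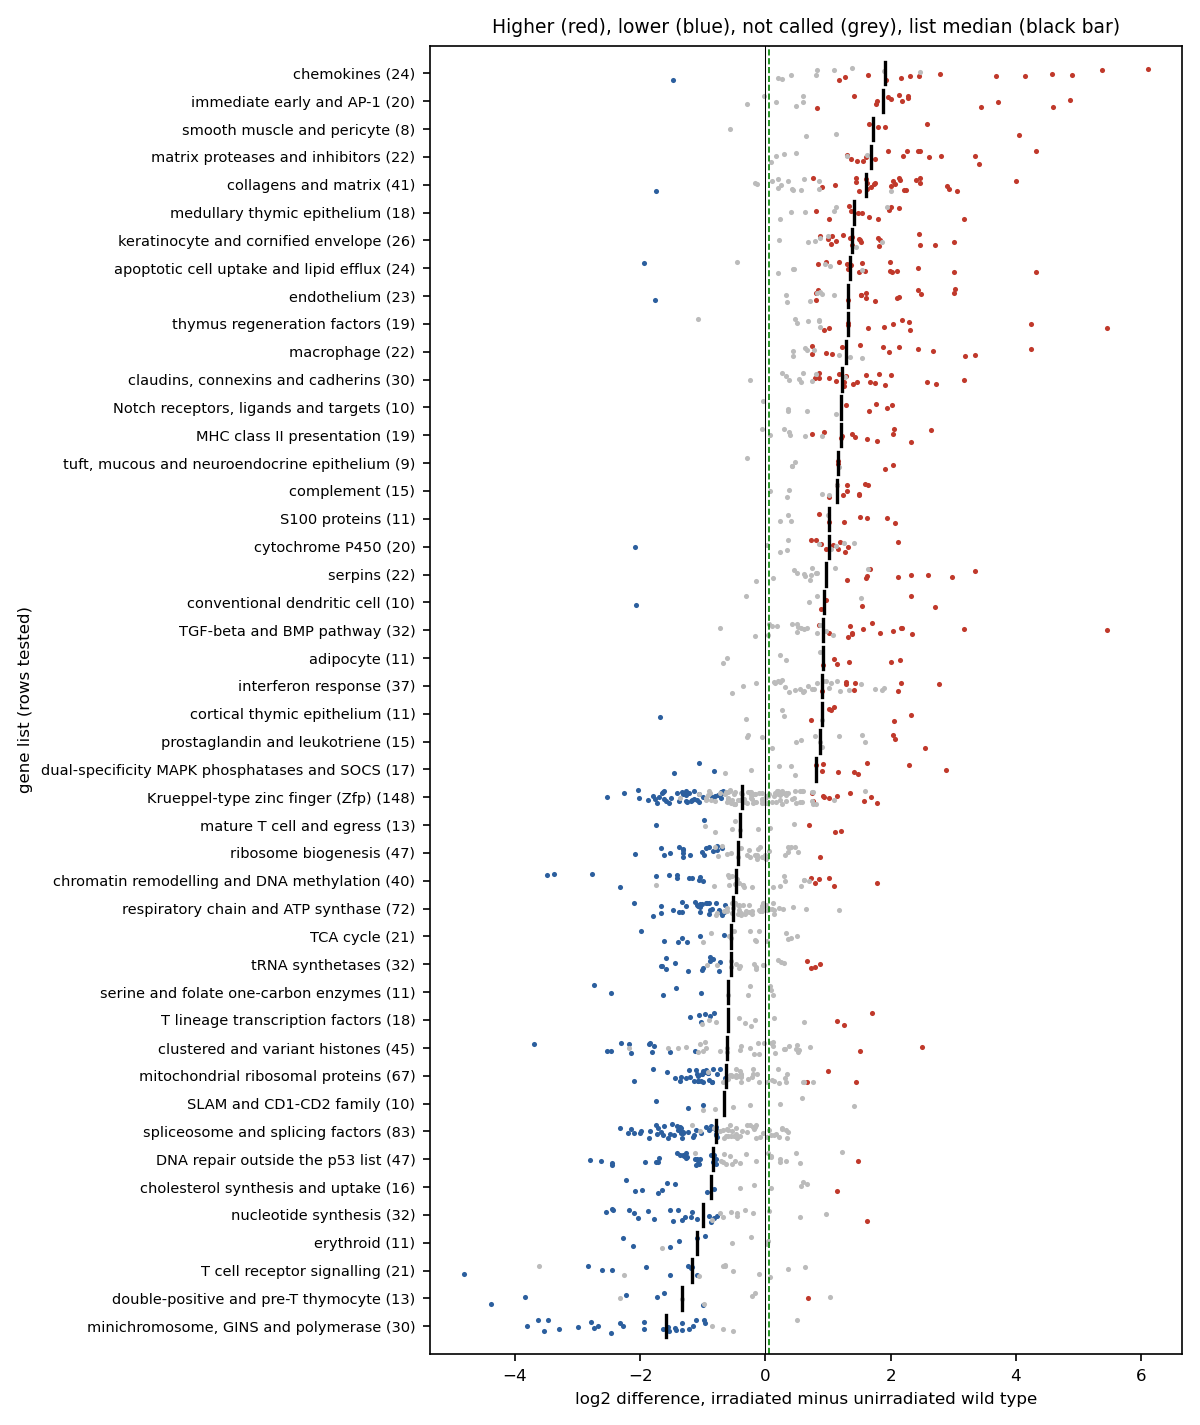
Log2 difference (x axis) of every tested row of the 26 gene lists with the highest and the 20 with the lowest medians, among lists of at least 8 rows tested, ordered by median, with red for rows called higher, blue for lower and grey for not called; the black bar is the list's median and the green dashed line the median of all rows, 0.05. Chemokines, immediate early, matrix and smooth muscle genes lie furthest to the right and replication genes furthest to the left.

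The irradiated arrays agreed closely with each other. Of 11563 rows, 160 differed at least 2-fold between them, and 28 of those were called. Their extremes were spread over the groups above. Dntt was lower on array 2, as were Ankrd1 (119.6 against 499.5 and 214.6) and Nppb (123.6 against 550.9 and 252.5), both known as stress genes of heart muscle. Il1b, Mmp9, Ppbp, a platelet chemokine (121.0 against 223.9 and 374.7), Rnase2a, an eosinophil-associated ribonuclease (206.9 against 1499 and 2783), and Spp1, osteopontin (160.6 against 359.2 and 604.5), were higher on array 2. Ankrd1, Nppb, Rnase2a and Spp1 were named after their values were seen.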

How the data were processed

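Only the mouse arrays were used. Per the file headers, the deposited non-normalized table gives, per gene name and array, a linear intensity averaged over beads, the standard error of that average, a count of beads and a detection p-value; probes of a gene had been averaged, detection p-values included. The authors' series matrix holds the same intensity values times 1 constant per array, and was an alternative. Scanner settings are not given in the sources used here. Median bead numbers were 41 to 43 per row, and precision is limited by how few arrays there are.

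Signals were corrected by normexp (limma 3.58.1, R 4.3.3, offset 16), quantile-normalized and taken to log2. Negative-control means and SDs were estimated from median signals in bins of detection p 0.01 wide between 0.02 and 0.98, a choice made after the background estimates had been seen. Rows with detection p under 0.01 on at least 2 arrays were fitted with lmFit and eBayes on 5 arrays with a mean per group (2 residual and 2.88 prior degrees of freedom), two-sided, with Benjamini-Hochberg adjustment over all rows. Names were updated through a GRCm38.p6 gene table (16223 rows by current symbol, 5684 by synonym, 8808 by neither).

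The comparison, its members and the 102 gene lists were chosen with earlier results of these data known, and lists are described without a test. Named genes are the 12 largest rises and 12 largest falls among called rows detected in the brighter group, up to 4 called members of each described list and the called member that moved most against it, fixed defining markers, and, for a list with no call, its 2 largest differences; others are marked in the text. Promoters are the first listed for a gene, 7175 of 11087 symbols having one. The alternatives were other background corrections, offsets, normalizations, filters, array sets, an intensity trend, and the omission of X- and Y-linked rows. Results for some genes and 1 gene list are not reported here.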

Additional observations from a re-analysis of the deposited data

How the results depend on the processing

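Of 4189 rows called, 2158 were higher and 2031 lower. Where neqc inferred the background itself 2763 were called and 1138 were higher, and 2334 of the main calls remained. With the wild-type arrays alone 6377 were called, 3360 of them higher. On the authors' matrix 3392 were higher of 4876 called, or 69.6%, against 51.5% here, 41.2% with neqc's own inference and 55.0% with median scaling. Leaving out 1 array gave 0 to 6377 called, 0 to 3360 higher and 0 to 3017 lower: 0 rows without either irradiated wild-type array (limma; 3832 and 3498 at an unadjusted p under 0.05) and 6377 without either TRAF6 null array, since a lone null array then adds no degrees of freedom. Those results differ by construction in the arrays that give the spread; the cause of the other shifts was not tested. Without X- and Y-linked rows, an alternative chosen after seeing the data, 4055 of 11270 rows were called, 2114 higher and 1941 lower. No named gene changed direction while called in any alternative. Of 410 named rows, 396 lost their call without either irradiated wild-type array, 138 with neqc's own inference, 68 with no filter and 32 on the authors' matrix. Medians of 90 of 102 lists kept their sign in every alternative. The offset pulls folds of dim genes towards 1. Low signal leaves 986 rows tested without a level on the unirradiated array alone and 122 without one on the irradiated wild-type arrays alone. Rows at background in both groups are in neither count. No paired analysis was possible because the groups compared share fewer than 2 replicate numbers.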
